A study of Homo sapiens with 6 samples.

Results

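The endoplasmic reticulum (ER) folding machinery and the unfolded protein response were followed here as 40 genes, matched by gene name to rows of the deposited count table. These were 40 of 60662 genes in the table, each matched once. The list holds the stress sensors of the ER membrane, transcription factors of the response, chaperones and their cofactors, disulfide isomerases and oxidases, ER-associated degradation (ERAD) factors, and subunits of a phosphatase that ends the translational arm. The rule that matches the rows uses names and no measured value.

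Stranded mRNA sequencing covered 3 libraries with XG knockout and 3 wildtype libraries of TC-71, a long-established line from a human Ewing sarcoma. XG codes for a glycoprotein of the cell surface on which the Xg blood group antigen is carried. All 6 libraries came from untreated cells in the same serum-supplemented medium, so no agent that stresses the ER was applied. Neither the clonal or pooled origin of the knockout cells nor the culture behind each replicate is given in the labels, and every p-value therefore reflects only how far these libraries spread.

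Proteins that enter the secretory pathway fold in the ER with the help of chaperones such as BiP, the product of HSPA5, and of enzymes that form and rearrange disulfide bonds. When unfolded proteins accumulate, IRE1 (encoded by ERN1), PERK (EIF2AK3) and ATF6 signal from the ER membrane. IRE1 splices XBP1 mRNA so that it encodes an active transcription factor, PERK phosphorylates eIF2alpha and slows translation, and ATF6 is cut in the Golgi to release a transcription factor that raises chaperone genes and XBP1 itself.

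ATF6, with the CCAAT-binding factor NF-Y, acts through the ER stress response element (ERSE), a CCAAT box set apart from a CCACG box. The element was looked for as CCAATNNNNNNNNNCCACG, where N is any base, on both strands of the 250 bases before each RefSeq transcription start (GRCh38.p14). A promoter was matched for 36 of the 40 genes. The element was present in 7 of the 36 (19.4%), against 22 of all 27305 promoters of that length (0.0806%), the 7 included. XBP1 was the only listed gene called in the comparison of all libraries described below, a call kept in 8 of 16 alternative settings. Its promoter and that of HSPA5, the classical reporter of the response, are shown whole. They read 5′ to 3′ on the gene's own strand. Capitals mark the CCAAT and CCACG boxes of the matched element, and other copies of these boxes stay in lower case.
XBP1, chr22:28800570-28800819, minus strand: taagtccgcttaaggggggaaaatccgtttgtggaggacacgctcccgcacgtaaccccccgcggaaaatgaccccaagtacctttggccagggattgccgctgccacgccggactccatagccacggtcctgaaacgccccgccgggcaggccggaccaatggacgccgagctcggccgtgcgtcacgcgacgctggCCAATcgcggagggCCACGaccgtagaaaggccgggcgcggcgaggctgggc
HSPA5, chr9:125241344-125241593, minus strand: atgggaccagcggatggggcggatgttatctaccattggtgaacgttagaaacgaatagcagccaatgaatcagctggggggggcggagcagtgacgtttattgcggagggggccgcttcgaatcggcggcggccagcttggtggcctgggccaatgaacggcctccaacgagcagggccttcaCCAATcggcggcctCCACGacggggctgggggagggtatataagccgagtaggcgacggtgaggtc

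The element lay 34 bases before the start of XBP1 and 48 bases before the start of HSPA5, measured from its nearer end. Its copies in the other 5 promoters are given below, read in the motif's own orientation. The search itself fixed both boxes and left the 9 bases between them free. HSP90B1 had 2 copies.
ERO1B, chr1:236282183-236282201: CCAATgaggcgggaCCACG
CANX, chr5:179698778-179698796: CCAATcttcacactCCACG
HSP90B1, chr12:103930216-103930234: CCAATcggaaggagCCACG
HSP90B1, chr12:103930321-103930339: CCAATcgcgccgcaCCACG
CALR, chr19:12938384-12938402: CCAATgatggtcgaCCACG
CRELD2, chr22:49918554-49918572: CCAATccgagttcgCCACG
A second form of the element, ERSE-II, was looked for as ATTGGNCCACG on both strands and was present in 3 of the 36 promoters (8.33%), against 14 of 27305 (0.0513%). It is shown here because HYOU1, HERPUD1 and SDF2L1, all known targets of the response, held it and not the first form. HYOU1 had 2 copies with the same letters.
HYOU1, chr11:119057274-119057284: ATTGGaCCACG
HERPUD1, chr16:56932025-56932035: ATTGGgCCACG
SDF2L1, chr22:21642114-21642124: ATTGGtCCACG
Matches are letters in a window and not measured binding. ERSE and ERSE-II matches shared no bases in any of these promoters. The core TGACGTG of the element bound by XBP1 and ATF6 was in 2 of 36 (DNAJC10 and HYOU1), against 1.71% of all promoters. In HYOU1 it overlapped by 4 bases the ERSE-II copy that is not printed above, at chr11:119057380-119057390. The core TGATGNAA of the element bound by ATF4 was in 2 of 36 (PPP1R15B and HERPUD1), against 3.19%.

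The libraries held 22557187 to 31214099 counted fragments. The check of the labels was XG itself, which stood at 29.97, 29.98 and 28.86 CPM (counts scaled to library size) in the knockout libraries, against 45.38, 47.14 and 44.45 CPM in the wildtype libraries. XG mRNA was therefore 64.8% of wildtype (log2 fold change -0.63, SE 0.0478, edgeR adjusted p = 1.65e-06), and a gene-level count does not say whether the remaining mRNA encodes protein. Knockout replicate 3 stood apart from the other 2 knockout libraries: its chi-square per gene was 4.70 and 4.33 against these and 2.15 to 2.38 against the wildtype libraries. Knockout replicates 1 and 2 also read GC-rich genes lower, with a trend of -0.20 and -0.14 log2 between high and low GC content, against 0.10 in knockout replicate 3 and 0.066 to 0.094 in the wildtype libraries. All 12 listed Ewing sarcoma markers passed the filter on low counts. Of these, edgeR called 2 (16.7%, against 1.36% of all genes), IL1RAP higher and CD99 lower. After a correction for the trend with GC content, IL1RAP kept its call (edgeR adjusted p = 0.00278) and CD99 did not (edgeR adjusted p = 0.144). Summed haematopoietic markers (3 of 7 at 0 in all libraries) and endothelial markers (1 of 5 at 0) reached at most 0.522 and 0.253 CPM in any library. The 7 fibroblast markers, 5 of them tested and 0 called by edgeR, DESeq2 or limma voom (1 at an unadjusted p under 0.05), summed to 69.6 to 78.4 CPM in knockout and 74.5 to 79.9 CPM in wildtype libraries. The 5 epithelial markers summed to 7.01 to 7.59 CPM in knockout and 5.14 to 5.72 CPM in wildtype libraries. Of the 2 tested, edgeR called 1 higher, KRT18, while limma voom called 1 of the list and DESeq2 called 0. The part of these markers in the results below was not tested. In bulk RNA, fewer cells of a kind and less RNA per cell cannot be told apart.

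Of the 40 genes, 39 passed the filter on low counts, and XBP1 alone rose in the comparison of XG knockout with wildtype at an adjusted p under 0.05 (edgeR quasi-likelihood test, Benjamini-Hochberg adjustment over 14425 genes). Its log2 fold change was 0.13, and none of the other 38 passed, including BiP, the 3 stress sensors and every disulfide isomerase. Across all genes 1.36% were called, 0.444% higher and 0.915% lower, so 1 call among 39 (2.56%) lies near that background. The median log2 fold change of the 39 was 0.0024, with 21 above 0, against 0.0019 for all genes tested. DERL3, an ERAD factor known from secretory tissues, had 0 counts in all 6 libraries, where 3 counts, the limit that 0 allows for counting error only, are at most 0.133 CPM.

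**Figure D1:**
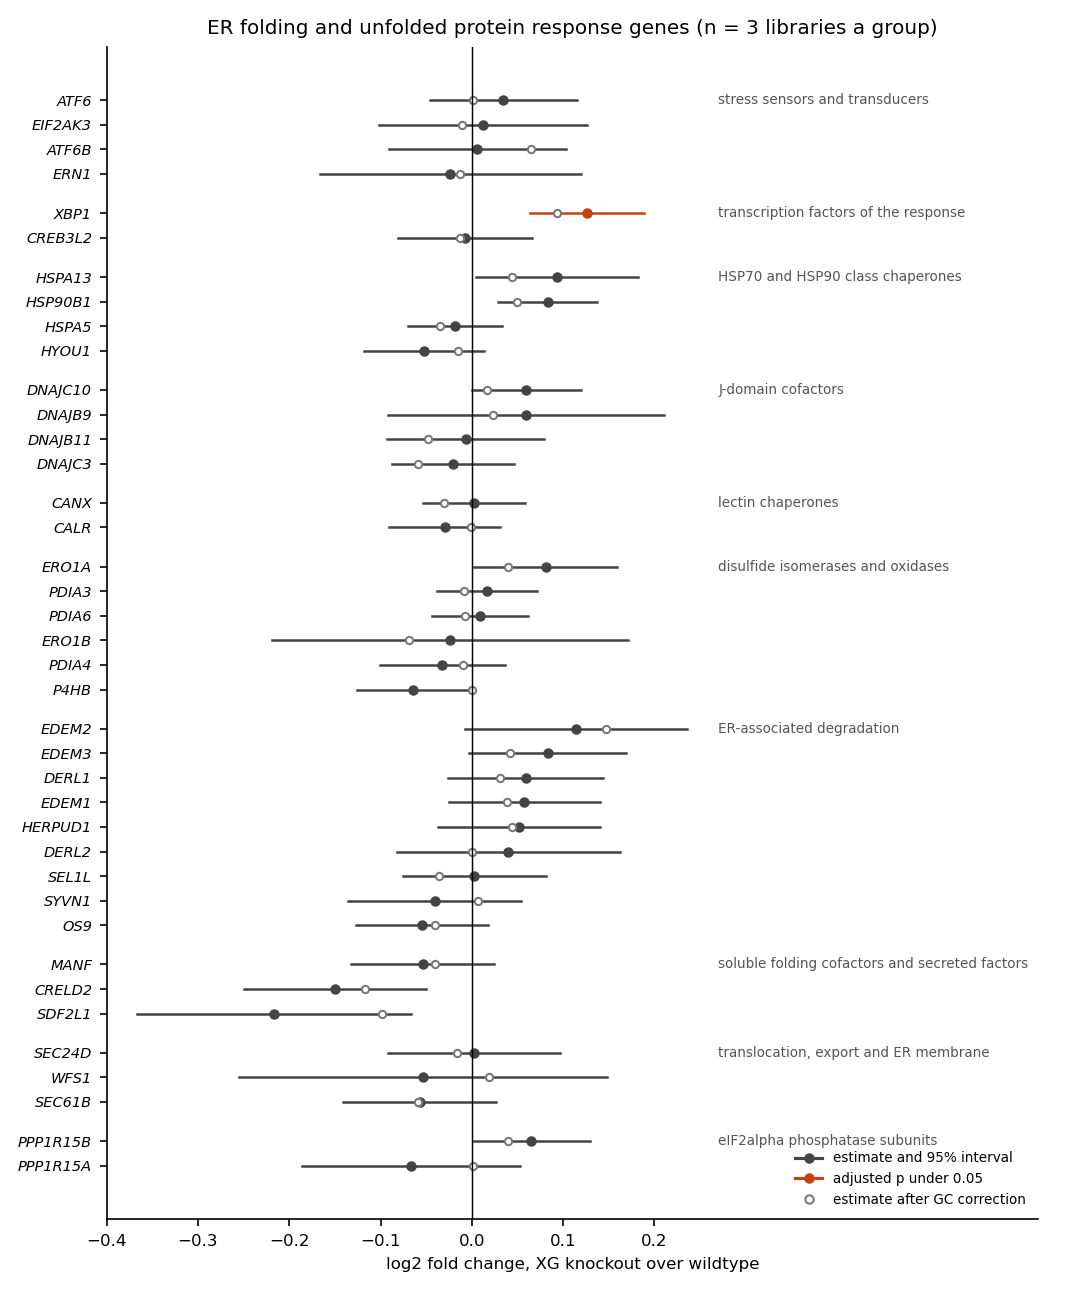
Log2 fold change of XG knockout over wildtype for each of the 39 tested genes, grouped by role, with its 95% interval (filled points and lines) and the estimate after GC correction (open points). XBP1, in colour, is the one gene past the threshold, and estimates run between -0.22 (SDF2L1) and 0.13 (XBP1).

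The median SE of these genes was 0.039 log2, against 0.064 for all genes tested. Among the 39 it fell with level, from 0.058 under 50 CPM to 0.029 over 100 CPM. No comparison was made with genes of similar level. The 95% intervals of 38 of the 39 genes, not adjusted for their number, lay within 0.8 to 1.25 fold, limits chosen after the values were seen. The exception was SDF2L1, whose lower bound was 0.776 fold, and the highest upper bound was 1.18 fold, for EDEM2. An unadjusted p under 0.05 was reached by 8 of 39 genes, against 16.8% of all genes. Groups did not overlap for 11 of 39 genes (28.2%), against 20.5% of all genes. The knockout libraries stood above all wildtype libraries for 8 of the 39 genes (against 10.7% of all genes) and below them for 3 of the 39 (against 9.8%). Summed over the 40 genes, the level was 9549.5 ± 137 CPM in knockout and 9526 ± 116 CPM in wildtype libraries (SD, n = 3 each).

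XBP1 (ENSG00000100219.16, chr22:28794555-28800597, minus strand, GRCh38) encodes the transcription factor made active when IRE1 splices its mRNA, and its targets include ERAD and translocation genes. It stood at 165, 168 and 163 CPM in the knockout libraries, against 153, 151 and 150.4 CPM in the wildtype libraries. All 3 knockout libraries were above all 3 wildtype libraries. The means were 165 ± 2.35 CPM in knockout and 151 ± 1.43 CPM in wildtype (SD, n = 3 each), a fold of 1.09 with a 95% interval of 1.04 to 1.14 (log2 fold change 0.13, SE 0.0298, edgeR adjusted p = 0.042). Counts per gene do not separate spliced from unspliced XBP1 mRNA, so splicing was not measured here.

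The direction of XBP1 was positive in all 16 alternative settings, with a log2 fold change of 0.093 to 0.14, and 8 of the 16 kept it past the threshold in the tool used. Leaving out knockout replicate 1 or 2 ended the call (edgeR adjusted p = 0.0852 and 0.198), as did leaving out wildtype replicate 1, 2 or 3 (edgeR adjusted p = 0.170, 0.226 and 0.210). In the same order, 67, 41, 24, 26 and 18 of all genes were called in these settings, against 196 with all libraries. The log2 fold change of XBP1 in them was 0.11 to 0.13. Without knockout replicate 3, the library that stood apart, the edgeR adjusted p was 0.00106, with 12.7% of all genes called. Knockout replicate 3 set alone against the wildtype libraries gave a log2 fold change of 0.11. Knockout replicates 1 and 2 averaged 109.8% of the wildtype mean, and knockout replicate 3 was at 107.8%. In the authors' deposited table XBP1 had a log2 fold change of 0.12 (adjusted p = 0.0318), and it was the only one past 0.05 of the 35 listed genes with an adjusted p there, against 2.66% of all genes with one.

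**Figure D2:**
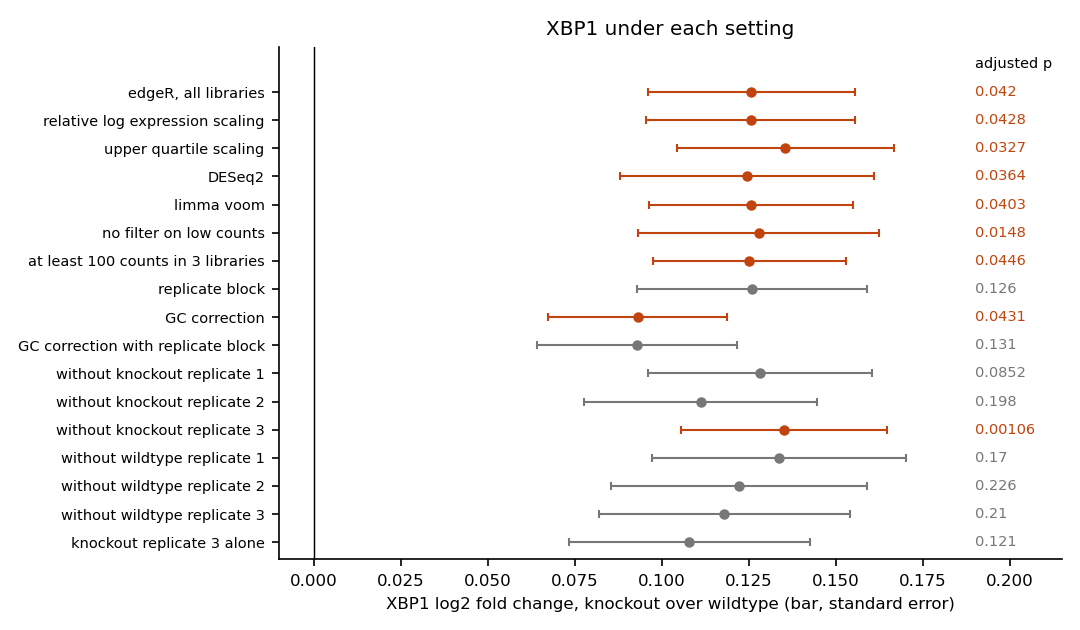
Log2 fold change of XBP1, XG knockout over wildtype, with its standard error under each setting, and the adjusted p beside it. Every estimate lies above 0, coloured points are those past an adjusted p of 0.05, and the settings that leave out a library spread from 0.00106 to 0.226 in adjusted p.

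The other transcription factor of the list, CREB3L2, a membrane-bound relative of ATF6, averaged 86.1 ± 1.34 CPM in knockout and 86.6 ± 1.47 CPM in wildtype libraries (SD, n = 3 each). Among the sensors, ATF6 stood at 84.1, 79.9 and 80.8 CPM in the knockout libraries, against 77.8, 78.6 and 82.6 CPM in the wildtype libraries. ERN1, which encodes IRE1 and so acts directly on XBP1 mRNA, stood at 18.4, 18.8 and 18.6 CPM in the knockout libraries, against 17.1, 19.6 and 20.2 CPM in the wildtype libraries. For both sensors the groups overlapped. EIF2AK3, which encodes PERK, stood at 26.1, 25.7 and 26.0 CPM in the knockout libraries, against 26.9, 24.9 and 25.4 CPM in the wildtype libraries. The ATF6 relative ATF6B averaged 45.9 ± 2.18 CPM in knockout and 45.7 ± 0.506 CPM in wildtype libraries (SD, n = 3 each). All 4 sensor genes overlapped between the groups, with log2 fold changes of -0.023 (ERN1) to 0.035 (ATF6) and edgeR adjusted p of 0.708 to 0.963. The edgeR test called 0 of the 4, 0 of them had an unadjusted p under 0.05, and DESeq2 and limma voom each called 0.

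HSPA5 encodes BiP, the HSP70 chaperone that binds unfolded chains and holds the sensors inactive. It stood at 982, 965 and 989.9 CPM in the knockout libraries, against 989.7, 1009 and 977 CPM in the wildtype libraries. The groups overlapped, and the fold was 0.987 with a 95% interval of 0.952 to 1.02 (edgeR adjusted p = 0.756). HSP90B1, which encodes the ER chaperone GRP94, stood at 1278, 1319 and 1246 CPM in the knockout libraries, against 1228, 1202 and 1198 CPM in the wildtype libraries. The groups did not overlap, but the difference missed the threshold (log2 fold change 0.083, SE 0.026, edgeR adjusted p = 0.115). It passed without knockout replicate 3 (log2 fold change 0.10, edgeR adjusted p = 0.00352, with 12.7% of all genes called) and without the filter on low counts (edgeR adjusted p = 0.0281, with 2.37% of all genes called).

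HSPA13, an HSP70-like protein of the ER, stood at 92.8, 85.7 and 82.8 CPM in the knockout libraries, against 79.7, 81.9 and 83.2 CPM in the wildtype libraries. Knockout replicates 1 and 2 were above the wildtype range and knockout replicate 3 was within it. The difference of 0.093 log2 was not called (edgeR adjusted p = 0.272) and was 0.044 with GC correction. HSPA13 rose past the threshold without knockout replicate 3 (0.13 log2, edgeR adjusted p = 0.0171, with 12.7% of all genes called). HYOU1, a large HSP70-related chaperone that also exchanges nucleotide on BiP, averaged 369 ± 15.9 CPM in knockout and 382 ± 6.81 CPM in wildtype libraries (SD, n = 3 each). edgeR called 0 of these 4 HSP70 and HSP90 class genes, as did DESeq2 and limma voom, with HSP90B1 and HSPA13 at an unadjusted p under 0.05.

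**Figure D3:**
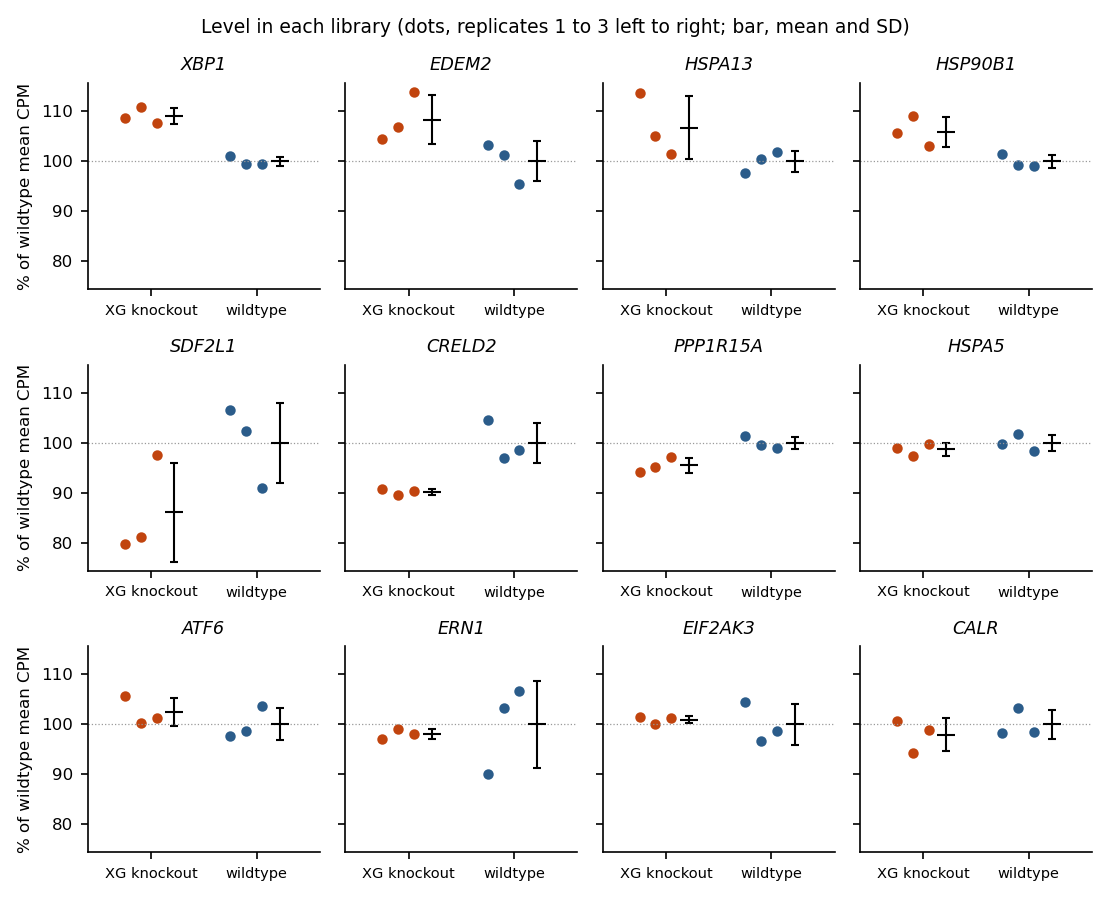
Level of 12 genes in each library as a percentage of the wildtype mean CPM, with XG knockout left of wildtype; dots are libraries and bars are the mean and SD of 3. XBP1, HSP90B1, EDEM2, CRELD2 and PPP1R15A show groups that do not overlap, and in SDF2L1 knockout replicate 3 sits among the wildtype libraries.

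The J-domain proteins stimulate BiP or guide chains to it. DNAJC10, a J-domain disulfide reductase that works with ERAD, averaged 273 ± 6.43 CPM in knockout and 262 ± 4.28 CPM in wildtype libraries (SD, n = 3 each), with no overlap of the groups (log2 fold change 0.06, edgeR adjusted p = 0.300). DNAJB9, which leads BiP to IRE1 and is itself a target of XBP1, averaged 18.3 ± 1.22 CPM in knockout and 17.5 ± 1.42 CPM in wildtype libraries (SD, n = 3 each). DNAJB11 averaged 65.9 ± 2.11 CPM in knockout and 66.2 ± 2.08 CPM in wildtype libraries (SD, n = 3 each). DNAJC3, an inhibitor of PERK and cofactor of BiP, averaged 163 ± 5.29 CPM in knockout and 165 ± 2.36 CPM in wildtype libraries (SD, n = 3 each). The groups overlapped for these last 3 genes. edgeR, DESeq2 and limma voom each called 0 of the 4 J-domain genes, and 0 had an unadjusted p under 0.05.

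Calreticulin (CALR) and calnexin (CANX) are lectins that hold glycoproteins while they fold. CALR averaged 879.8 ± 29.5 CPM in knockout and 898 ± 25.7 CPM in wildtype libraries (SD, n = 3 each), and CANX averaged 1366 ± 44.0 CPM in knockout and 1363 ± 18.2 CPM in wildtype libraries. Both overlapped between the groups. The edgeR, DESeq2 and limma voom fits each called 0 of these 2 lectins, and 0 had an unadjusted p under 0.05.

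Disulfide isomerases and oxidases gave no call in edgeR, DESeq2 or limma voom among 6 genes, with P4HB and ERO1A at an unadjusted p under 0.05. P4HB, the classical protein disulfide isomerase, stood at 933, 886 and 965 CPM in the knockout libraries, against 967, 989 and 956 CPM in the wildtype libraries. Its log2 fold change of -0.065 (edgeR adjusted p = 0.275) was 9.4e-05 after GC correction. P4HB fell without knockout replicate 3 (log2 fold change -0.093, edgeR adjusted p = 0.0119, with 12.7% of all genes called). ERO1A, the oxidase that recharges these enzymes, averaged 80.9 ± 1.07 CPM in knockout and 76.4 ± 2.41 CPM in wildtype libraries (SD, n = 3 each), with no overlap and a log2 fold change of 0.081 (edgeR adjusted p = 0.281). PDIA3, PDIA4 and PDIA6, isomerases of which PDIA3 works with the lectins, had log2 fold changes of 0.016, -0.032 and 0.0092. ERO1B, the second oxidase, averaged 10.9 ± 1.21 CPM in knockout and 11.04 ± 0.941 CPM in wildtype libraries (SD, n = 3 each). The groups overlapped for these 4 genes.

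ERAD removes chains that do not fold. Of its 10 listed genes 9 were tested, edgeR, DESeq2 and limma voom each called 0, and 0 had an unadjusted p under 0.05. Their median log2 fold change was 0.052, with 7 of 9 above 0, and after GC correction the median was 0.031. EDEM2, which trims mannose from misfolded glycoproteins, stood at 24.47, 25.01 and 26.65 CPM in the knockout libraries, against 24.17, 23.72 and 22.38 CPM in the wildtype libraries. All knockout libraries were above all wildtype libraries, and the difference was not called (log2 fold change 0.11, SE 0.0579, edgeR adjusted p = 0.330). Its relatives EDEM1 and EDEM3 had log2 fold changes of 0.057 and 0.083, and the groups overlapped for EDEM3 but not for EDEM1. The retrotranslocation factors DERL1 and DERL2 had log2 fold changes of 0.059 and 0.04, with no overlap for DERL1.

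HERPUD1, a scaffold of the ERAD complex and a known target of the response, averaged 66.4 ± 2.01 CPM in knockout and 64.0 ± 2.61 CPM in wildtype libraries (SD, n = 3 each). SYVN1, the ubiquitin ligase HRD1, averaged 45.7 ± 1.74 CPM in knockout and 47.1 ± 0.807 CPM in wildtype libraries. SEL1L, the partner of HRD1, averaged 87.3 ± 2.95 CPM in knockout and 87.1 ± 1.80 CPM in wildtype libraries. OS9, a lectin that delivers substrates to that complex, averaged 159.5 ± 5.43 CPM in knockout and 166 ± 5.37 CPM in wildtype libraries. The groups overlapped for these 4 genes.

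The soluble cofactors CRELD2, MANF and SDF2L1, known as targets of ATF6, all had negative log2 fold changes, with a median of -0.15, or -0.099 after GC correction. None passed the threshold in edgeR, and DESeq2 and limma voom each called 0, while CRELD2 and SDF2L1 had an unadjusted p under 0.05. CRELD2, a cofactor with disulfide isomerase activity, stood at 37.2, 36.8 and 37.1 CPM in the knockout libraries, against 42.9, 39.8 and 40.5 CPM in the wildtype libraries. All knockout libraries were below all wildtype libraries, knockout replicate 3 included, at 90.3% of the wildtype mean. The difference was -0.15 log2 (SE 0.0473, edgeR adjusted p = 0.117), or -0.12 after GC correction. CRELD2 fell past the threshold without knockout replicate 3 (edgeR adjusted p = 0.0376, with 12.7% of all genes called).

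SDF2L1, part of a large BiP complex, stood at 29.7, 30.2 and 36.3 CPM in the knockout libraries, against 39.7, 38.1 and 33.9 CPM in the wildtype libraries. Knockout replicates 1 and 2 were below every wildtype library, at 80.5% of the wildtype mean together, and knockout replicate 3 was at 97.6% and within the wildtype range. No other of the 39 genes had a lower log2 fold change, -0.22 with SE 0.0714 (edgeR adjusted p = 0.131). Its transcript had the highest GC content of the 39, 65.5%, and after GC correction the log2 fold change was -0.099. SDF2L1 fell without knockout replicate 3 (log2 fold change -0.32, edgeR adjusted p = 6.66e-05, with 12.7% of all genes called). It also fell without the filter on low counts (edgeR adjusted p = 0.00905, with 2.37% of all genes called). Knockout replicate 3 alone against the wildtype libraries gave SDF2L1 a log2 fold change of -0.041. MANF, a secreted trophic factor that also binds BiP, averaged 65.1 ± 0.814 CPM in knockout and 67.5 ± 0.557 CPM in wildtype libraries (SD, n = 3 each), with no overlap and a log2 fold change of -0.054.

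PPP1R15A (GADD34) and PPP1R15B (CReP) direct the phosphatase that reverses the action of PERK, the first on induction by stress and the second constitutively. PPP1R15A stood at 20.2, 20.4 and 20.9 CPM in the knockout libraries, against 21.8, 21.4 and 21.3 CPM in the wildtype libraries, without overlap (log2 fold change -0.067, edgeR adjusted p = 0.603). PPP1R15B averaged 179.99 ± 4.52 CPM in knockout and 172 ± 1.75 CPM in wildtype libraries (SD, n = 3 each), also without overlap and in the other direction (log2 fold change 0.065, edgeR adjusted p = 0.285). PPP1R15B rose past the threshold without knockout replicate 3 (log2 fold change 0.086, edgeR adjusted p = 0.0404, with 12.7% of all genes called). The edgeR, DESeq2 and limma voom fits of all libraries each called 0 of the 2, with PPP1R15B at an unadjusted p under 0.05.

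The translocon subunit SEC61B averaged 103 ± 1.91 CPM in knockout and 108 ± 6.18 CPM in wildtype libraries (SD, n = 3 each), and the COPII coat subunit SEC24D averaged 46.7 ± 0.779 CPM in knockout and 46.7 ± 1.78 CPM in wildtype libraries. WFS1, an ER membrane protein mutated in Wolfram syndrome, averaged 8.80 ± 1.06 CPM in knockout and 9.14 ± 0.423 CPM in wildtype libraries (SD, n = 3 each) and had the widest SE of the 39 genes, 0.0959 log2. The groups overlapped for these 3 genes. edgeR and limma voom each called 0 of the 3, DESeq2 called 0 of the 2 for which it gave an adjusted p (SEC61B and SEC24D), and 0 had an unadjusted p under 0.05.

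Levels per length, in CPM per kilobase of exon, were highest for chaperones and isomerases, while most roles were spread over the order. CALR was highest at 324 in knockout and 331 in wildtype libraries, followed by HSP90B1 at 273 in knockout and 258 in wildtype libraries and HSPA5 at 249.7 in knockout and 253 in wildtype libraries. The 6 genes with the highest CPM (HSP90B1, CANX, HSPA5, P4HB, CALR and PDIA6) made up 64.6% of the summed CPM in knockout and 64.7% in wildtype libraries. XBP1 ranked 10 at 54.5 in knockout and 49.98 in wildtype libraries. ERN1 was the lowest of the detected genes, at 1.71 in knockout and 1.74 in wildtype libraries. The length is that of all annotated exons joined, which lowers the value of genes with long alternative exons, such as DNAJC10.

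**Figure D4:**
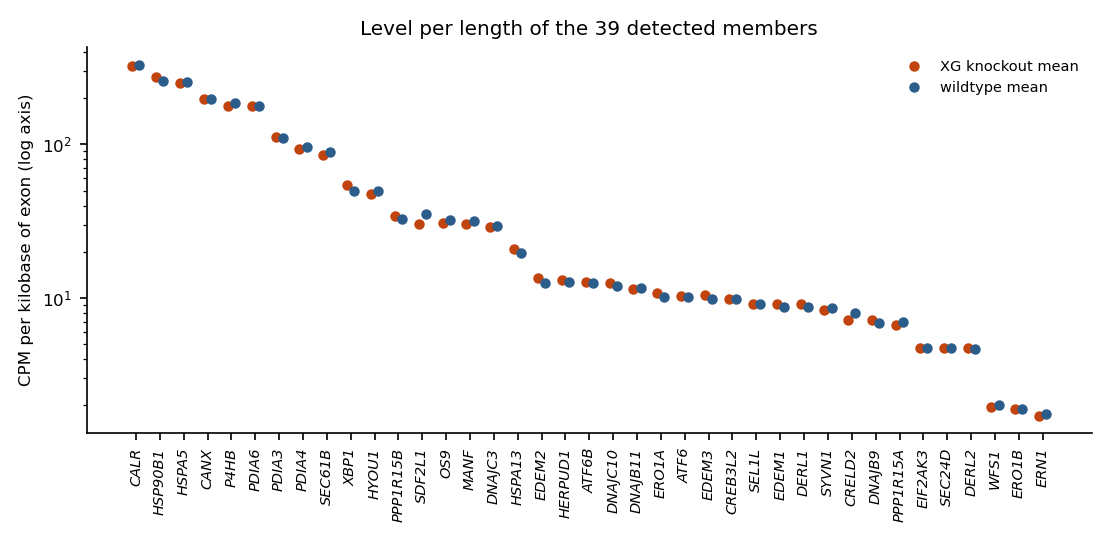
Mean level per kilobase of exon (log axis) of the 39 detected genes in XG knockout and wildtype libraries, highest first. The highest 8 are chaperones and isomerases, from CALR at 324 in knockout and 331 in wildtype, and the sensor ERN1 is lowest, at 1.71 in knockout and 1.74 in wildtype; knockout and wildtype points lie close together throughout.

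The direction of a gene's fold change went with the GC content of its transcript. Of 18 genes under 45% GC, 15 had positive log2 fold changes, with a median of 0.049, against 69.9% of all tested genes in that range and a median of 0.037. Of 14 genes over 50% GC, 2 were positive, with a median of -0.053, against 31.9% of all tested genes and a median of -0.052. These limits were chosen after the values were seen. After a correction that removes each library's trend with GC content, 11 of 18 and 6 of 14 were positive, and Pearson's r across the 39 genes went to -0.13 with the correction, against -0.68 without it. That r describes genes measured in the same 6 libraries, which are not independent. The correction changed the sign of 10 of the 39 estimates and kept XBP1 past the threshold at a log2 fold change of 0.093 (edgeR adjusted p = 0.0431), where 2.35% of all genes were called.

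**Figure D5:**
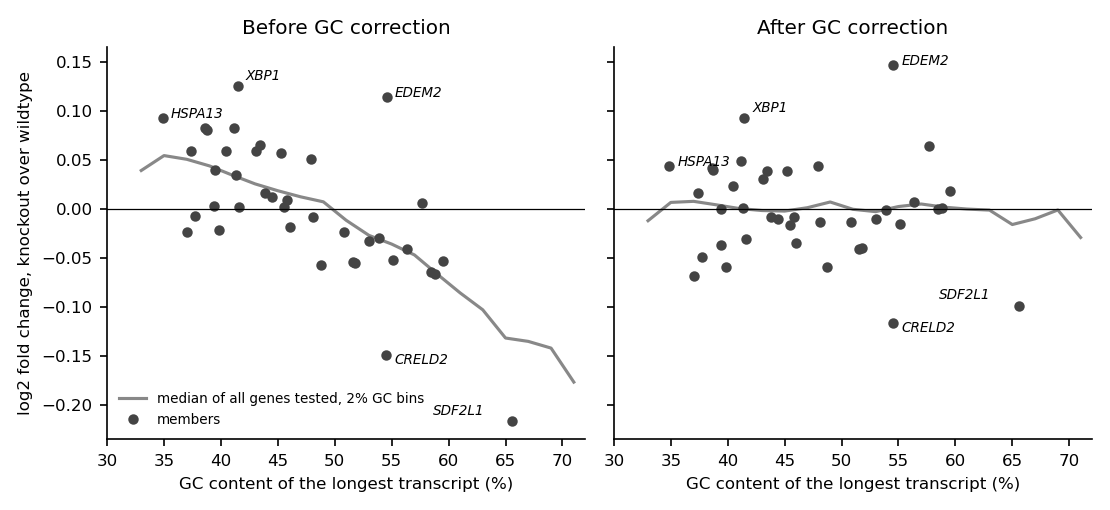
Log2 fold change of XG knockout over wildtype against GC content of the longest transcript, before and after GC correction, for the 39 genes (points) and the median of all tested genes in bins of GC content (line). Before correction the points follow the falling line, with XBP1 and EDEM2 above it and CRELD2 and SDF2L1 below it; after correction the line lies near 0.

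Genes with the ERSE printed above did not share a direction. Of the 7, XBP1 rose, HSP90B1 had a positive and CRELD2 a negative log2 fold change without passing the test, and HSPA5, CALR, CANX and ERO1B lay between -0.03 and 0.0021. Their median log2 fold change was -0.019, with 3 of 7 above 0, against 0.0027 and 15 of 29 for the tested genes whose promoter lacked it. The ERSE-II genes HYOU1, HERPUD1 and SDF2L1 had log2 fold changes of -0.053, 0.052 and -0.22. No test was made of these differences.

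Beyond the 40 genes, 137 genes of the same pathways were listed, 133 were tested, and 5 were called (3.76%, against 1.36% of all genes), 4 higher and 1 lower. All 5 lay in the lists of PERK and ATF4 outputs and of mRNAs that IRE1 is known to cut in mouse cells. The lists were chosen with earlier results of these data known, so these shares are descriptive only. Of 11 tested PERK and ATF4 outputs, 3 rose and 1 fell (36.4%, against 1.36% of all genes), with a median log2 fold change of 0.06. After GC correction the median was 0.11 and 5 were called, where 2.35% of all genes were. CHAC1, which degrades glutathione, stood at 16.07, 18.88 and 18.44 CPM in the knockout libraries, against 13.03, 13.47 and 13.21 CPM in the wildtype libraries (log2 fold change 0.43, edgeR adjusted p = 0.00701). SESN2 and DDIT4, inhibitors of mTORC1 signalling, rose by 0.34 each (edgeR adjusted p = 0.0126 and 0.0419), and the factor ATF5 had a log2 fold change of -0.26 (edgeR adjusted p = 0.00212). DDIT3, which encodes the stress factor CHOP, and ATF4 itself were not called, though ATF4 was with GC correction.

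ATF5 was past the threshold in all 16 alternatives. CHAC1 lost its call without knockout replicate 2 (edgeR adjusted p = 0.0584) or wildtype replicate 1 (0.0944) or 3 (0.0691). SESN2 lost its call without wildtype replicate 1 (edgeR adjusted p = 0.112), 2 (0.0601) or 3 (0.0934), and with a replicate block in the model (0.0537). DDIT4 stood at 44.03, 52.6 and 61.0 CPM in the knockout libraries, against 43.2, 42.6 and 39.2 CPM in the wildtype libraries. Knockout replicate 3 was the highest, and the log2 fold change of DDIT4 was 0.22 without it (edgeR adjusted p = 0.00408) and 0.55 with it alone. DDIT4 kept its call in 8 of 16 alternatives, not in DESeq2 (adjusted p = 0.226) or limma voom (adjusted p = 0.0537). Its edgeR call was lost without knockout replicate 2 (edgeR adjusted p = 0.137) or wildtype replicate 1 (0.161), 2 (0.169) or 3 (0.225). The same held with the replicate block (0.122) and with a filter of at least 100 counts in 3 libraries (0.0746). Of all genes, 41 were called without knockout replicate 2, and 24, 26 and 18 without wildtype replicate 1, 2 and 3. With the block 37 were called, against 196 in the main fit. Of 5 mRNAs known from mouse cells as IRE1 decay substrates, PDGFRB, a growth factor receptor, rose to 48.3 ± 2.86 CPM in knockout libraries, against 39.1 ± 1.46 CPM in wildtype libraries (SD, n = 3 each; log2 fold change 0.30, edgeR adjusted p = 0.00685). PDGFRB lost its call without wildtype replicate 1 (edgeR adjusted p = 0.0979) or 3 (0.0803). The other 9 pathway lists had 0 genes called by edgeR, DESeq2 or limma voom. They were further targets of XBP1 and of ATF6, the translocon and signal peptidase, oligosaccharyltransferase, further ERAD factors, further isomerases, further folding factors, the COPII coat, and other factors of the response. In these lists between 1 and 4 genes each had an unadjusted p under 0.05, against 16.8% of all genes.

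Among the 15 further XBP1 targets, 12 had positive log2 fold changes and the median was 0.024. UFM1, a ubiquitin-like modifier of the ER, averaged 147 ± 3.35 CPM in knockout and 136 ± 1.33 CPM in wildtype libraries (SD, n = 3 each; log2 fold change 0.11, edgeR adjusted p = 0.0895). SSR4, a translocon-associated subunit, had a log2 fold change of -0.10 (edgeR adjusted p = 0.172). After GC correction the median of these 15 was -0.0028. Among 8 further ATF6 targets the median was -0.021, and PDIA5, an isomerase known to act on ATF6, had a log2 fold change of 0.12 (edgeR adjusted p = 0.293).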

How the data were processed

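Stranded mRNA libraries of TC-71 cells, 3 with XG knockout and 3 wildtype, were grouped by their titles. Deposited counts are whole fragments per gene from the authors' featureCounts run (Subread 2.0.1, paired-end, reverse-stranded, exons of GENCODE 33 genes, no option for multi-mapping reads), per the file headers. Alignment used STAR 2.7.6a on GRCh38, per the submitters' processing notes. The authors' deposited comparison, attributed in those notes to DESeq2 1.38.3, gives a mean normalised signal, log2 fold changes and standard errors, a test score, and p-values; its direction was checked against the counts and was the same in 99.2% of 14425 genes and in 39 of 39 listed genes.

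Genes were kept by filterByExpr of edgeR 4.0.16 (minimum count 10, minimum total 15), which left 99.92% of counts. Counts were scaled by TMM and tested by glmQLFTest in R 4.3.3, two-sided, without covariates, with Benjamini-Hochberg adjustment and a threshold of 0.05. CPM are counts over TMM-scaled library sizes. Precision is limited by depth and by 3 libraries a group; intervals come from the model. The GC correction removed each library's lowess trend (span 0.5) with GC content, taken from the longest transcript in GENCODE 29. Alternatives were other scalings, filters and tools (DESeq2 1.42.0, limma 3.58.1), GC correction, a replicate block, an adjusted p of 0.01, each library left out, and knockout replicate 3 alone, which assumes that this library varies as the wildtype ones do. Promoters are from RefSeq (GRCh38.p14), whose starts can differ from those of the count table, so some matches lie inside its gene spans. SEC24D, DERL3, PDIA3 and DERL1 were not in the promoter table used.

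The genes and lists were chosen with earlier results of these data known. Named were XG, all 40 genes, up to 4 called genes of each other list by smallest p, and up to 2 genes as values where none was called; single libraries are given for XG and, of the 40, for called genes, the 3 highest and 3 lowest fold changes, ATF6, ERN1, EIF2AK3, HSPA5 and XBP1. Libraries of P4HB, HSP90B1, CHAC1 and DDIT4, and DDIT3 and ATF4, were added after their values were seen.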

Additional observations from a re-analysis of the deposited data

How the results depend on the processing

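The number of the 39 genes past the threshold was 1 under both other scalings, DESeq2, limma voom, the stricter filter and GC correction. It was 3 without the filter on low counts, 0 with knockout replicate 3 alone and 0 at an adjusted p of 0.01, and leaving out 1 library gave 0 to 7. The 7 came without knockout replicate 3, where 12.7% of all genes were called; without any other library it was 0. Among all genes, 196 passed; 647 did without the filter, 339 with GC correction, 125 with knockout replicate 3 alone, 33 at an adjusted p of 0.01, and 18 (without wildtype replicate 3) to 1851 (without knockout replicate 3) with 1 library left out. The 5 calls in other pathway lists became 3 at an adjusted p of 0.01 and 1 (without wildtype replicate 1 or 3) to 17 (without knockout replicate 3) with 1 library left out. The median of the 39 genes stayed between -0.0064 and 0.016, and XG was called in all 16 alternatives. The causes were not tested.

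Replicate numbers did not pair the samples (correlations of -0.045, -0.020 and -0.050 between same-numbered libraries). With a replicate block 0 of the 39 genes, 37 of all genes and 3 genes of other pathway lists were called, and with GC correction and the block 0 of the 39. XBP1 had edgeR adjusted p = 0.126 with the block and 0.131 with both.

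Depth limits the low end: the median SE was 0.058 log2 for 13 genes under 50 CPM and 0.029 for 15 genes over 100 CPM.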

Other observations

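Chaperones of other compartments were listed for contrast. Of 20 cytosolic chaperone genes edgeR, DESeq2 and limma voom each called 0, and 5 had an unadjusted edgeR p under 0.05, against 16.8% of all genes. Their median log2 fold change was -0.012, against 0.0024 for the ER genes. Of 10 mitochondrial chaperone and protease genes the same tools each called 0, and 2 had an unadjusted edgeR p under 0.05, against the same 16.8%. Their median was 0.0025. Without knockout replicate 3, 5 of the cytosolic and 3 of the mitochondrial genes were called by edgeR, where 12.7% of all genes were. Of 6 listed markers of plasma and secretory cells, 1 passed the filter on low counts, SDC1. It stood at 4.82 to 5.01 CPM in knockout and 4.80 to 5.07 CPM in wildtype libraries. MZB1, JCHAIN, IGKC, POU2AF1 and PRDM1 had 3, 4, 2, 10 and 21 counts in total over all libraries.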
